A study of Drosophila melanogaster with 14 samples.

Results

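The genes described here are the 5 serotonin receptors of Drosophila, *5-HT1A*, *5-HT1B*, *5-HT2A*, *5-HT2B* and *5-HT7*, in the PDF+ LNvs, a set of lateral clock neurons in the ventral brain marked by the neuropeptide PDF. The family was taken whole, as 5 of the 13792 genes quantified, with no cutoff on any value. It was, however, selected on its levels in TPM in these 14 libraries, which were known when it was proposed, so the levels are given as a description with no test.

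LNvs labelled by Pdf>mGFP were sorted from dissected brains, and their amplified RNA was sequenced at several zeitgeber times (ZT, hours after lights on) of a 12:12 light-dark cycle. The flies were females in the w1118 background under the labelled condition HC25, kept at 25°C. Fly age and the number of brains in each library were not given in the sources used here. The study asked which LNv transcripts depend on *Atx2*, a gene of RNA metabolism, and on its partner *tyf*. Wild type (WT) had 1 library at each of ZT24, ZT02, ZT04, ZT12, ZT14 and ZT16, all carrying Pdf>mGFP. *Atx2* RNAi (labelled Atx2 KD) had 2 libraries at ZT00 and 2 at ZT12, from flies in which the KK108843 RNAi line was expressed in the LNvs together with mGFP, so the knockdown is limited to cells that use the *Pdf* driver and rests on 1 RNAi line. The *tyf* mutant, labelled tyf(e), had 2 libraries at ZT04 and 2 at ZT16. This mutation is carried by the whole fly and not by the LNvs alone. The wild-type library that served as the ZT0 control is labelled ZT24, and the wild-type ZT02 and ZT14 libraries served both mutants, so the *Atx2* RNAi and *tyf* comparisons share controls. Nothing in the labels says that the 2 libraries of a mutant group came from separate flies or sorts, so the p-values measure the spread between libraries, which may be technical.

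Serotonin acts on clock and other neurons through receptors of the G protein-coupled kind. *5-HT1A* and *5-HT1B* couple to inhibitory G proteins and lower cAMP. *5-HT2A* and *5-HT2B* belong to the class that signals through phospholipase C and calcium, and *5-HT7* couples to the stimulatory G protein and raises cAMP. In flies, serotonin is known to dampen the light response of the clock through *5-HT1B*, which is found in the LNvs, and *5-HT1A* is known for a role in sleep.

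The 14 libraries held between 5216112 and 23507263 estimated counts. *Pdf*, which defines the cells, ran from 192690 to 347870 TPM (a level corrected for transcript length and library size), so the libraries carried their labelled cell type. Each targeted gene was called lower in the libraries labelled for it. *Atx2* was 38.5 ± 8.02 (SD, n = 2) normalized CPM in *Atx2* RNAi against 175 ± 8.72 (n = 2) in wild type at ZT0, and *tyf* was 64.1 ± 1.73 in the mutant against 767 ± 242 at ZT4. *tyf* was also called lower in *Atx2* RNAi at ZT0, with 208 ± 24.7 against 642 ± 418 normalized CPM (log2 fold change −1.65, edgeR adjusted p = 0.0373), but not at ZT12 (0.16, adjusted p = 0.869). Normalized CPM are counts relative to the size of the library, scaled between libraries by the TMM method of edgeR and not corrected for length. *Trhn*, the neuronal enzyme that commits tryptophan to serotonin, had 3 or fewer counts in 12 of the 14 libraries, and *SerT*, the serotonin transporter, had a median of 1.41 TPM.

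Markers of some other cell types differed between genotypes, and those of others overlapped. The summed level of the cholinergic markers *ChAT* and *VAChT* was 44.9 to 78.3 TPM in wild type, 3.28 to 17.1 in *Atx2* RNAi and 8.54 to 26.03 in *tyf*. The 6 glial markers summed to 9.01 to 33.4 TPM in wild type, 4.58 to 23.4 in *Atx2* RNAi and 82.9 to 240.9 in *tyf*. The high sums were mostly *Gs2*, which ran from 3.01 to 212.55 TPM over the 14 libraries. No other glial marker exceeded 12.1 TPM, and the defining glial gene *repo* had a median of 0.41 TPM over the 14 libraries. In *tyf*, 1 of the 6 glial markers was called higher than wild type at ZT4 and 2 of 6 at ZT16. Of all genes tested, 4.3% and 6.22% were called there. The median log2 fold change of the 6 was 2.03 at ZT4 and 2.65 at ZT16, against 0.01 and −0.03 over all genes. *Tbh* and *Tdc2*, enzymes of octopamine and tyramine synthesis, overlapped, with sums of 479 to 1252 TPM in wild type, 573 to 657 in *Atx2* RNAi and 449.6 to 730 in *tyf*. The GABAergic markers *Gad1* and *VGAT* summed to 25.2 to 66.2 TPM in wild type and 21.3 to 73.8 in *Atx2* RNAi. In *tyf* they summed to 13.9 to 22.4 TPM at ZT16, but the 2 libraries of ZT4 lay far apart, at 16.6 and 214 TPM. The 5 photoreceptor markers summed to 5.39 to 44.03 TPM in wild type, 0.692 to 26.3 in *Atx2* RNAi, 4.92 to 14.98 in *tyf* at ZT4 and 112 to 197 in *tyf* at ZT16, where 2 of 5 were called higher than wild type. The 3 fat body markers summed to 1.92 to 5.72 TPM in wild type and 7.76 to 9.91 in *Atx2* RNAi. This sum was mostly *apolpp* (1.47 to 9.11 TPM over the 14 libraries), since *Lsp2* reached 1.25 TPM at most and *Fbp1* 0.51. In bulk libraries, fewer cells of a type and less RNA per cell cannot be told apart. The part of these shifts in the receptor differences below was not tested.

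By level, *5-HT1A* stood first. Its median over the 14 libraries was 23.9 TPM (range 5.41 to 68.9), higher than 70.0% of the 9695 genes tested in the fit of all libraries. *5-HT2B* followed with 5.71 TPM (2.25 to 12.9) and *5-HT1B* with 3.26 TPM (1.33 to 6.43). *5-HT2A* had 3.11 TPM (1.31 to 7.36), and *5-HT7* was lowest with 2.28 TPM (0.626 to 4.75), higher than 26.9% of the genes.

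Neighbours in this order were not apart over the 14 libraries, because every pair of neighbouring ranges overlapped. Within libraries, *5-HT1A* exceeded *5-HT2B* in 13 of 14, *5-HT2B* exceeded *5-HT1B* in 10, *5-HT1B* exceeded *5-HT2A* in 11, and *5-HT2A* exceeded *5-HT7* in 11. *5-HT1A* was the highest of the 5 in 12 libraries. The exceptions were both wild-type day libraries, ZT02, where *5-HT2A* led, and ZT04, where *5-HT2B* led. The ranges of *5-HT1A* and *5-HT2B* did not overlap within *Atx2* RNAi or within *tyf*.

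**Figure D1:**
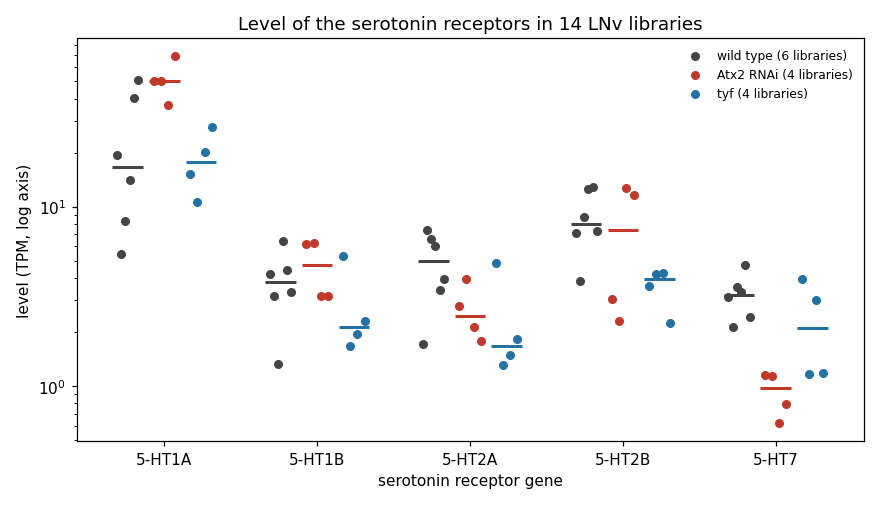
Level of each serotonin receptor in TPM (log axis) in the 14 LNv libraries, 1 point for each library and a bar at the median of each genotype. *5-HT1A* reached 68.9 TPM and the *Atx2* RNAi points of *5-HT7*, at 0.626 to 1.15 TPM, lie under all 6 wild-type points.

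The mix of receptor transcripts differed among the libraries. In wild type, *5-HT1A* made up between 24.7% and 74.9% of the summed TPM of the 5 genes, with the lowest share at ZT02 and the highest at ZT16. In *Atx2* RNAi it made up 66.4% to 79.8% in the 4 libraries, and in *tyf* 46.3% to 78.5%. *5-HT7* made up 3.59% to 12.5% in wild type but 0.925% to 1.82% in *Atx2* RNAi. The summed level of the family was 21.9 TPM at ZT02 and 67.8 TPM at ZT16 in wild type, 55.6 to 86.4 TPM in *Atx2* RNAi and 19.1 to 35.2 TPM in *tyf*.

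**Figure D2:**
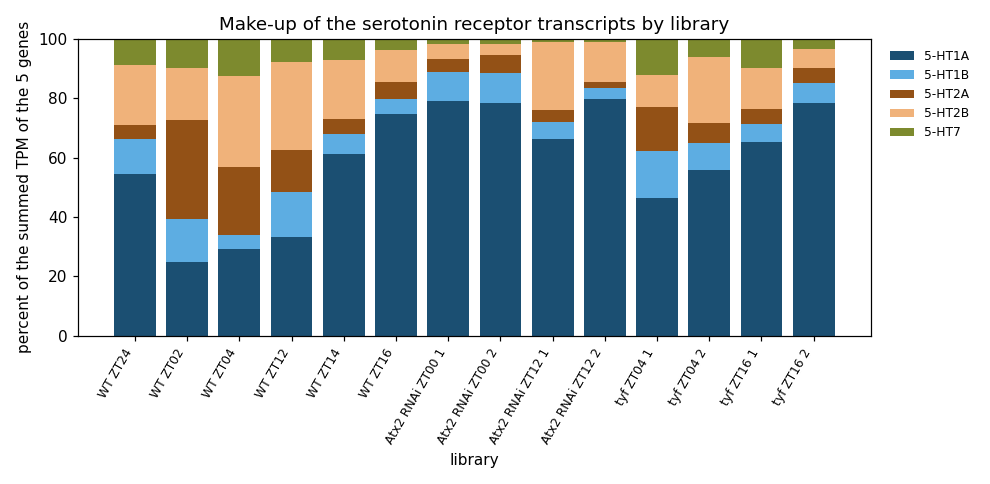
Share of each receptor in the summed TPM of the 5 genes (percent), 1 bar for each of the 14 libraries. *5-HT1A* took the lowest share, 24.7%, in wild-type ZT02 and the highest, 79.8%, in an *Atx2* RNAi library of ZT12.

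*5-HT1A* (FBgn0004168) lies on chromosome 2R, bases 19067155 to 19121958 on the plus strand of the BDGP6 assembly, and *5-HT1B* (FBgn0263116) ends 34512 bases before it, at 19022325 to 19032642 on the minus strand. *5-HT2A* (FBgn0087012, 4612870 to 4633304, plus), *5-HT2B* (FBgn0261929, 8578205 to 8629996, plus) and *5-HT7* (FBgn0004573, 30968236 to 31016875, minus) lie on chromosome 3R. Exons of none of the 5 genes overlapped an exon of another gene on either strand.

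For *5-HT2B* and *5-HT7*, all counts in all 14 libraries were assigned to the transcript with the longest 3′ UTR. This was FBtr0339322 for *5-HT2B*, with a 3′ UTR of 2975 bases against 656 and 527 in the others, and FBtr0334508 for *5-HT7*, with 1648 bases against 742. The other transcripts of both genes were listed at 0. *5-HT1B* counts fell mainly on FBtr0330055, with 90.1% of its counts over all libraries, but FBtr0330056 took 71.9% in wild-type ZT14 and FBtr0086599 took 56.0% in wild-type ZT04. These are single libraries with 67 counts of *5-HT1B* at ZT14 and 59 at ZT04. *5-HT2A* was split, with 72.8% on FBtr0339397 (0 to 98.0% by library), 16.9% on FBtr0078854 and 7.39% on FBtr0300474, and *5-HT1A* was quantified as 1 transcript. The reads were single reads of 50 bases from amplified RNA, and these splits are estimates of the quantification.

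Of the inhibitory receptors, *5-HT1A* varied most with time in wild type. It had 48.0 normalized CPM at ZT24, 14.8 at ZT02, 24.2 at ZT04, 36.2 at ZT12, 96.2 at ZT14 and 133 at ZT16. The lowest library was thus in the early morning and the highest at the latest night time measured, 9.37-fold apart in TPM, but the ZT24 day library was above the ZT12 library, so day and night overlapped. The 3 day libraries (ZT24, ZT02 and ZT04) averaged 29.0 ± 17.1 and the 3 night libraries 88.5 ± 48.96, and the difference did not pass the test (log2 fold change −1.59, SE 0.42, edgeR adjusted p = 0.0650). None of the 5 receptors was called between day and night, where 2.05% of all genes tested were called. The call was made without the ZT24 library (−2.15, adjusted p = 0.0109) or without the ZT12 library (−1.97, adjusted p = 0.00467). These 2 libraries were those that made day and night overlap. Of the 14 fits that left out 1 library, only these 2 changed the outcome, and the log2 fold change ran from −2.15 to −1.17.

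In *Atx2* RNAi, *5-HT1A* was high at both times. At ZT0 it had 180 and 158 normalized CPM in the mutant libraries, against 48.0 at ZT24 and 14.8 at ZT02 in wild type. The groups did not overlap, and the means of 169 ± 15.7 (n = 2) and 31.4 ± 23.5 (n = 2) were 5.38-fold apart. The gene was called higher (log2 fold change 2.41, SE 0.54, edgeR adjusted p = 0.0218), the single receptor called of 5 in a comparison that called 7.3% of all genes. The call was lost without *Atx2* RNAi replicate 1 (2.32, adjusted p = 0.0862), without replicate 2 (2.49, adjusted p = 0.0552) or without wild-type ZT02 (1.78, adjusted p = 0.0882). The summed fat body markers, mostly *apolpp*, were also higher and cholinergic markers lower in these libraries, and their part in the difference was not tested.

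At ZT12 *5-HT1A* had 123 and 197 normalized CPM in *Atx2* RNAi, against 36.2 at ZT12 and 96.2 at ZT14 in wild type. Every mutant library was above both controls, but the wild-type level differed between its 2 times. The fold change of 1.35 on the log2 scale (SE 0.51) did not pass the test (edgeR adjusted p = 0.141). Against the wild-type ZT12 library alone it was 2.17 (edgeR adjusted p = 0.00105), while it was 0.80 (adjusted p = 0.453) without wild-type ZT12 and 0.95 (adjusted p = 0.502) without *Atx2* RNAi ZT12 replicate 2. Within *Atx2* RNAi, ZT0 and ZT12 differed by 0.01 (log2, SE 0.50), with an interval of 2 SE from −0.99 to 1.02. The interaction of genotype and time was 1.06 (SE 0.72, adjusted p = 0.670), so a change in the time difference of *5-HT1A* was not shown.

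In *tyf*, *5-HT1A* was lower at ZT4 than at ZT16 in every library, a difference that did not pass the test. It had 43.5 and 37.2 normalized CPM at ZT4, against 14.8 at ZT02 and 24.2 at ZT04 in wild type, and 69.5 and 95.9 at ZT16, against 96.2 at ZT14 and 133 at ZT16. The mutant libraries were above both controls by day and below both by night, by a narrow margin in the second case. Neither difference passed the test. The log2 fold change was 1.06 (SE 0.29, edgeR adjusted p = 0.0566) at ZT4 and −0.44 (SE 0.28, adjusted p = 0.404) at ZT16. At ZT4, DESeq2 called the gene, with an adjusted p of 0.0136. The interaction of 1.50 (SE 0.41) had an unadjusted p of 0.00248 and an edgeR adjusted p of 0.329. Between its own times, *tyf* was lower at ZT4 than at ZT16 by a log2 fold change of −1.02 (SE 0.29, adjusted p = 0.143). The summed glial markers were higher in all 4 *tyf* libraries than in every wild-type library, the photoreceptor markers were higher in both ZT16 libraries of *tyf*, and the part of either in these values was not tested.

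*5-HT1B*, the receptor tied to the light response of the clock, was low in all libraries. In wild type it had 8.04 normalized CPM at ZT24, 6.66 at ZT02, 2.54 at ZT04, 12.8 at ZT12, 8.41 at ZT14 and 6.71 at ZT16. Its lowest library was ZT04 and its highest ZT12, and day and night overlapped (log2 fold change −0.70, SE 0.44, edgeR adjusted p = 0.648). In *Atx2* RNAi it had 17.1 and 15.2 at ZT0 and 8.13 and 6.97 at ZT12. In normalized CPM these ZT0 libraries were above every other library of the series for this gene. In TPM they had 6.21 and 6.29, below the 6.43 of wild-type ZT12. The difference from wild type at ZT0 was 1.11 (SE 0.33), just outside the threshold (edgeR adjusted p = 0.0696), and at ZT12 it was −0.43 (SE 0.34, adjusted p = 0.491). The interaction was 1.54 (SE 0.47, adjusted p = 0.213). In *tyf* the 2 libraries of ZT4 had 11.6 and 4.50 normalized CPM and those of ZT16 had 5.18 and 5.76. The ZT4 libraries lay far apart from each other, and the *tyf* differences of 0.86 (SE 0.60) and −0.43 (SE 0.59) did not pass the test. The ZT4 value was 0.02 without *tyf* ZT4 replicate 1 and 1.67 without wild-type ZT02.

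**Figure D3:**
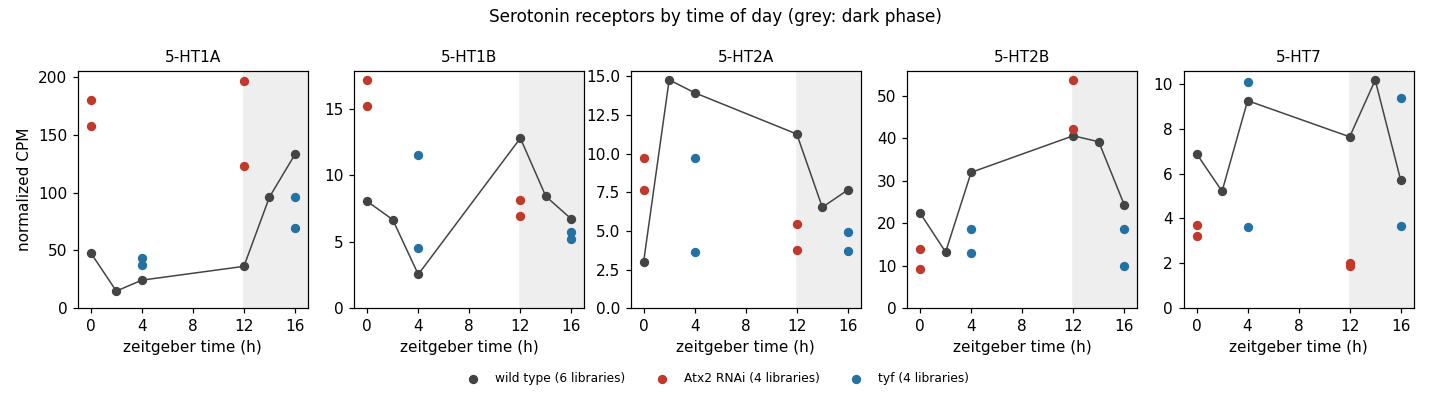
Normalized CPM of each receptor (linear axes that start at 0, 1 scale for each gene) against zeitgeber time in hours, with 1 point for each library, wild-type points joined by a line as a guide and the ZT24 library drawn at 0. *5-HT1A* in wild type runs from 14.8 at ZT02 to 133 at ZT16, and the *Atx2* RNAi points of *5-HT2B* lie at 9.19 and 13.95 at ZT0 and at 42.1 and 53.7 at ZT12.

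Of the phospholipase C class, *5-HT2A* was highest in the wild-type day libraries ZT02 and ZT04 and lowest at ZT24. The values were 3.02 normalized CPM at ZT24, 14.8 at ZT02, 13.9 at ZT04, 11.3 at ZT12, 6.53 at ZT14 and 7.66 at ZT16. Within the day libraries alone the gene thus spanned its whole wild-type range, and day and night did not differ beyond the spread (0.35, SE 0.49, edgeR adjusted p = 0.891). In *Atx2* RNAi it had 7.67 and 9.73 at ZT0 and 5.42 and 3.78 at ZT12. The difference from wild type at ZT0 was −0.06 (SE 0.59), and the interval of 2 SE from −1.24 to 1.11 leaves a change of either sign possible. The sign turned without wild-type ZT02 (1.50) and without *Atx2* RNAi replicate 1 (0.11). At ZT12 the difference was −0.89 (SE 0.62, adjusted p = 0.423). In *tyf* it had 9.73 and 3.62 at ZT4 and 3.72 and 4.92 at ZT16, all below the wild-type libraries of the same comparison, with log2 fold changes of −1.07 (SE 0.50, adjusted p = 0.260) and −0.68 (SE 0.50, adjusted p = 0.475).

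*5-HT2B*, known in flies for a part in sleep regulation, was the receptor with the clearest time difference in a mutant. In *Atx2* RNAi it had 13.95 and 9.19 normalized CPM at ZT0 and 53.7 and 42.1 at ZT12. The 2 times did not overlap, and the means of 11.6 ± 3.37 and 47.9 ± 8.17 were 4.14-fold apart. The gene was called lower at ZT0 (log2 fold change −2.12, SE 0.31, edgeR adjusted p = 0.00426), 1 of 5 receptors against 4.1% of all genes called between these times. Without *Atx2* RNAi ZT0 replicate 2 the adjusted p was 0.0503, with a log2 fold change of −1.84.

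In wild type *5-HT2B* had 22.4 normalized CPM at ZT24, 13.2 at ZT02, 32.0 at ZT04, 40.6 at ZT12, 39.2 at ZT14 and 24.3 at ZT16. The 2 libraries around dusk were highest and ZT02 was lowest, and day and night overlapped (−0.58, SE 0.32, edgeR adjusted p = 0.573). The time difference of *Atx2* RNAi was not shown to differ from that of wild type, since the interaction was −0.98 (SE 0.43, adjusted p = 0.424). Against wild type, *Atx2* RNAi differed by −0.65 (SE 0.31, adjusted p = 0.239) at ZT0 and by 0.33 (SE 0.30, adjusted p = 0.548) at ZT12.

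In *tyf*, *5-HT2B* was 13.04 and 18.7 normalized CPM at ZT4 and 18.7 and 9.85 at ZT16. The ZT16 libraries were below both night controls, of 39.2 and 24.3. The difference of −1.12 (SE 0.44) at ZT16 missed the threshold (edgeR adjusted p = 0.153), and that of −0.50 (SE 0.43) at ZT4 did too (adjusted p = 0.584). The part of the higher photoreceptor and glial markers of the ZT16 libraries in these values was not tested. No receptor of 5 was called in *tyf* at ZT4, where 4.3% of all genes were called, or at ZT16, where 6.22% were called. Between ZT4 and ZT16 within *tyf*, none of 5 was called against 0.989% of all genes. At an unadjusted p under 0.05, edgeR had 2 receptors at ZT4, 1 at ZT16 and 1 between the times, against 18.9%, 21.7% and 10.1% of all genes.

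*5-HT7*, the stimulatory receptor, had the lowest median of the family over the 14 libraries, although within *tyf* the median of *5-HT2A* was lower (1.66 against 2.11 TPM), and it fell in *Atx2* RNAi at ZT12. At ZT12 the mutant libraries had 1.86 and 2.03 normalized CPM, against 7.64 at ZT12 and 10.2 at ZT14 in wild type. The groups did not overlap, and the means of 1.95 ± 0.12 (n = 2) and 8.91 ± 1.79 (n = 2) were 4.57-fold apart. The gene was called lower (log2 fold change −2.11, SE 0.46, edgeR adjusted p = 0.0230), the single receptor called of 5 in a comparison that called 6.83% of all genes. These levels rest on few reads, since the 2 *Atx2* RNAi libraries of ZT12 held 11 and 14 counts of the gene. Those of ZT0 held 37 and 42. The call was lost without *Atx2* RNAi replicate 1 (adjusted p = 0.154), without replicate 2 (adjusted p = 0.129), without wild-type ZT14 (adjusted p = 0.112) and against wild-type ZT12 alone (adjusted p = 0.0563), with log2 fold changes from −2.20 to −1.93. The cholinergic markers were lower in the same libraries, and their part in the difference was not tested.

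At ZT0 *5-HT7* had 3.69 and 3.22 normalized CPM in *Atx2* RNAi against 6.89 at ZT24 and 5.21 at ZT02. Both mutant libraries were below both controls, and the difference of −0.83 (SE 0.43) did not pass the test (edgeR adjusted p = 0.282). The interaction of genotype and time was 1.28 (SE 0.63, adjusted p = 0.484). No receptor was called for the interaction in the *Atx2* experiment, where 0.74% of all genes were called, or in the *tyf* experiment, where 0.0526% were. In these tests 2 receptors and 1 receptor, respectively, had an unadjusted p under 0.05, against 11.2% and 6.01% of all genes. In wild type the levels at the other times were 9.25 at ZT04 and 5.70 at ZT16, and day and night differed by −0.10 (SE 0.45). In *tyf* the libraries had 10.1 and 3.62 at ZT4 and 9.39 and 3.67 at ZT16, with 1 library of each time high and 1 low, and the differences from wild type were −0.06 (SE 0.61) and −0.24 (SE 0.61).

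**Figure D4:**
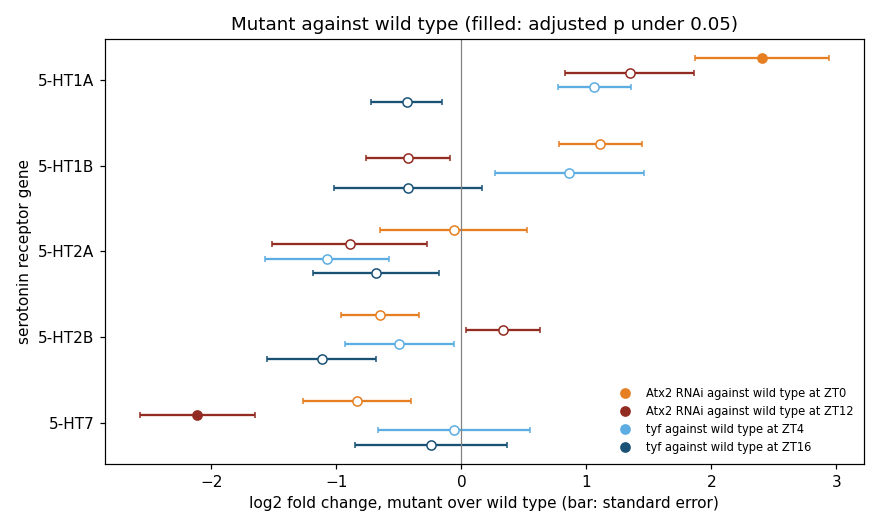
Log2 fold change of each receptor, mutant over wild type, in the 4 comparisons of genotype, with the standard error as a bar and filled points for an edgeR adjusted p under 0.05. Filled are *5-HT1A* in *Atx2* RNAi at ZT0 (2.41) and *5-HT7* in *Atx2* RNAi at ZT12 (−2.11).

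Over the 45 receptor tests (5 genes in 9 comparisons), edgeR made 3 calls, and 14 had an unadjusted p under 0.05. Over all genes, the share called in a comparison ran from 0.0526% to 7.3%, and the share at an unadjusted p under 0.05 from 6.01% to 23.4%. The median log2 fold change of the 5 receptors was −0.06 in *Atx2* RNAi at ZT0 and −0.43 at ZT12, against −0.01 over all genes tested at each time. In *tyf* it was −0.06 at ZT4 and −0.44 at ZT16, against 0.01 and −0.03. Of the 3 calls, 1 was higher and 1 lower than wild type, and 1 was between times.

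The receptors did not share 1 pattern over the 14 libraries. Pearson's r of log2 CPM between pairs ran from −0.53 for *5-HT1A* and *5-HT7* to 0.43 for *5-HT1A* and *5-HT1B*. These values describe libraries that share genotype, time and cell purity and carry no test.

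Beyond the receptors, 50 genes in 6 lists of the serotonin pathway were counted, covering serotonin handling, G proteins, the cAMP branch, the phospholipase C branch, receptor desensitization and other effectors. Of 45 tested in the *Atx2* experiment, 5 were called higher and 5 lower at ZT0 (22.2%, against 7.3% of all genes), and 2 higher and 4 lower at ZT12 (13.3%, against 6.83%). Of 49 tested in the *tyf* experiment, 2 were higher and 1 lower at ZT4 (6.12%, against 4.3%), and 2 were higher and 6 lower at ZT16 (16.3%, against 6.22%). Between wild-type day and night, 1 of 49 was higher and 3 were lower by day (8.16%, against 2.05%). Of the 40 pathway calls that could be named under the rule, 29 were lost in at least 1 alternative fit. The lists were chosen with earlier results of these data known. Their shares are therefore a description and do not test whether the pathway differs from other genes.

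In serotonin handling, *Ddc*, the decarboxylase shared by serotonin and dopamine synthesis, was lower in *Atx2* RNAi at ZT0 and in *tyf* at both times. It had 103 ± 30.1 normalized CPM against 296 ± 114 in *Atx2* RNAi at ZT0 (log2 fold change −1.55, edgeR adjusted p = 0.0196), a call lost in 2 of 17 alternative fits. In *tyf* it had 106 ± 3.17 against 386 ± 13.3 at ZT4 and 41.5 ± 14.8 against 145 ± 22.9 at ZT16, and both calls held in all 17. Within *Atx2* RNAi it was lower at ZT0 than at ZT12, by −2.28 on the log2 scale, and this held in all 16 alternative fits. Within *tyf* it was higher at ZT4 than at ZT16, by 1.37 (edgeR adjusted p = 0.0299), a call lost in 2 of 16. The dopaminergic markers *ple* and *DAT* summed to 4.19 and 4.26 TPM in *Atx2* RNAi at ZT0 against 19.3 and 22.3 in its controls, with 1 of 2 called lower, and their part in the *Ddc* difference was not tested. No other gene of this list was called in any comparison.

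Among the G proteins, both called genes were gamma subunits and both were lower. *Ggamma30A* had 67.0 ± 1.82 normalized CPM in *Atx2* RNAi at ZT12 against 800 ± 62.9 in wild type (log2 fold change −3.51, SE 0.52, edgeR adjusted p = 0.00313), and *Ggamma1* had 161 ± 18.8 against 381 ± 5.78. At ZT12 the *Ggamma30A* call held in all 17 alternative fits, and the *Ggamma1* call was lost in 2 of 17 (log2 fold changes from −1.31 to −0.96). *Ggamma30A* was also lower in *tyf* at ZT16, by −1.47 on the log2 scale, a call lost in 5 of 17 alternative fits (log2 fold changes from −1.86 to −0.84 over the 17, adjusted p up to 0.268), among them those without either *tyf* ZT16 library or without wild-type ZT14. The alpha subunits that the receptors use were present, with medians of 79.4 TPM for *Galphas*, 179 TPM for *Galphao* and 57.2 TPM for *Galphaq*, while *Galphai* had 0.66 TPM and 3 or fewer counts in 5 libraries. None of these 4 alpha subunits was called in any comparison, and *Galphai* did not pass the count filter of the *Atx2* experiment.

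Of the 16 genes of the cAMP branch, 2 were called higher and 4 lower in *Atx2* RNAi at ZT0, where 7.3% of all genes were called. *Ac76E*, an adenylyl cyclase, was lower in *Atx2* RNAi at ZT0 (−1.80) and ZT12 (−1.34), while *Pde1c*, a phosphodiesterase that breaks down cyclic nucleotides, was higher at both (1.78 and 1.38). Another cyclase, *Ac13E*, went the other way and was called higher at ZT12 (1.26, SE 0.31, edgeR adjusted p = 0.0367). This *Ac13E* call was lost in 7 of 17 alternative fits. The median of *Ac13E* over the 14 libraries was 87.8 TPM, against 11.7 TPM for *Ac76E*. *Pka-C1*, the catalytic subunit of the cAMP-dependent kinase, and *CrebB*, the transcription factor of the CREB family, were lower at ZT0, by −1.41 and −1.40. These 2 calls were lost in 3 of 8 fits that left out a library, in each case. The same held for the ZT12 calls of *Ac76E* and *Pde1c*. At ZT0 the *Ac76E* call was lost in 1 of 8 such fits, and that of *Pde1c* was kept in all 8. The cyclase *Ac13E* was higher by day in wild type (496 ± 227 against 156 ± 47.8 normalized CPM, n = 3 each), where the phosphodiesterases *Pde6* and *Pde8* were lower. Within *Atx2* RNAi, *Pde11* (2.78) and *Ac13E* (1.35) were higher at ZT0 than at ZT12. The *Pde11* call held in all 16 alternative fits, and that of *Ac13E* was lost in 6 of 16. Within *tyf*, *Pka-C1* was higher at ZT4 than at ZT16 (1.56), a call lost in 2 of 16. In *tyf* at ZT16 *Ac13E* (1.76) and *Pde11* (2.13) were higher, and *Pde6* (−1.46) and *Pde8* (−1.29) were lower. Of 8 fits that left out a library, these *tyf* calls were lost in 3 for *Pde8* and 2 for *Pde11*. They were lost in 1 each for *Ac13E* and *Pde6*. Of 14 such fits in wild type, the day calls were lost in 4 for *Pde8* and 1 for *Pde6*, and that of *Ac13E* was kept in all.

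In the phospholipase C branch, *Pkc53E*, a calcium-dependent protein kinase C, was higher in *Atx2* RNAi at ZT0 (101 ± 8.24 against 32.0 ± 7.36 normalized CPM, log2 fold change 1.64, edgeR adjusted p = 0.00278) and in *tyf* at ZT4 (1.57). *sl*, a phospholipase C gamma, was called higher in *Atx2* RNAi at ZT0, and *Cam*, calmodulin, lower at ZT12 by −0.71. Both calls were lost in 10 of 17 alternative fits, in 6 of them without 1 library, with adjusted p up to 0.220 for *sl* and 0.282 for *Cam*, and with the length offset *Cam* changed by −0.37. Within *Atx2* RNAi, *Pkc53E* was higher at ZT0 than at ZT12 (1.66), a call that held in all 16 alternative fits. Within *tyf*, *Plc21C* was higher at ZT4 than at ZT16 (1.47), a call lost in 2 of 16. Within *Atx2* RNAi, *Plc21C* went the other way, lower at ZT0 than at ZT12 (−1.09), and *norpA* was higher (0.87). Both genes encode phospholipase C beta enzymes. Each of these 2 calls was lost in 4 of 8 fits that left out a library. The *Pkc53E* call in *tyf* at ZT4 was lost in 2 of 8.

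Of the other effectors, *Irk1*, an inwardly rectifying potassium channel, had the largest wild-type time difference among the 49 pathway genes tested. It had 19.9 ± 4.59 normalized CPM by day and 174 ± 31.3 by night (log2 fold change −3.11, SE 0.24). It was higher in *Atx2* RNAi at ZT0 (1.41) and lower in *tyf* at ZT16 (−1.81). Within *Atx2* RNAi, *Irk1* was lower at ZT0 than at ZT12 (−1.62), a call lost in 2 of 16 alternative fits. *Irk2* had 8.95 ± 1.87 normalized CPM in *tyf* at ZT4 and 0.44 ± 0.29 in wild type. The gene was near the floor, with 3 or fewer counts in 4 of the 14 libraries. Its call was lost in 2 of 8 fits that left out a library, with log2 fold changes from 3.78 to 5.16 over the 8. *sgg*, the kinase known to act with *5-HT1B* in the light response, had a median of 171 TPM and was not called in any comparison. No gene of the desensitization list, which holds the arrestin *krz* and receptor kinases, was called in any of the 9 comparisons. At an unadjusted p under 0.05, edgeR had 2 of 6 in *Atx2* RNAi at ZT0 and 2 of 6 in the *Atx2* interaction, against 23.1% and 11.2% of all genes. The other comparisons had fewer.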

How the data were processed

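LNvs of 14 libraries were sequenced as single-end reads of 50 bases. Reads were assigned by the authors with kallisto to transcript models of FlyBase (release 6.14). They deposited an estimated count, without normalization, and a TPM value for each of 30438 transcripts. Here 30191 transcripts were matched to 13792 genes by the Ensembl release 115 annotation. The 247 others, with 0.234% of the counts, were left out. Counts and TPM were summed for each gene, and counts were rounded.

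Differences were tested by quasi-likelihood in edgeR 4.0.16 (limma 3.58.1, R 4.3.3), with TMM normalization, filterByExpr and Benjamini-Hochberg adjustment over all genes tested, with calls at an adjusted p under 0.05. The filter left 8643 genes in the *Atx2* experiment, 9503 in the *tyf* experiment and 9695 in the fit of all 14 libraries, and all 5 receptors passed in each. Each experiment was fitted as 4 groups of 2 libraries, and wild-type day against night as a contrast in a fit of all 14 libraries in 6 groups. In wild type the SD of a group includes the change between its times. Intervals span 2 SE on either side.

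Alternatives were DESeq2 1.42.0, its size factors in edgeR, library size only, no filter, at least 10 counts in every library, a transcript length offset, only the libraries compared, only the wild-type library of the own time, the replicate number as a block, and leaving out each library. The levels were also computed as TPM divided by the TMM factor, without the length correction and in wild type only. The fits were tested on simulated data. The members and gene lists were chosen with earlier results of these data known. The genes named are the 5 receptors and, in each list and comparison, up to 4 called genes with the largest absolute fold change. Genes most like a receptor had the highest Pearson's r of log2 CPM (prior count 2). Summaries were made in Python 3.11.15 with numpy 2.4.6 and pandas 2.3.3, and plots with matplotlib 3.10.9.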

Additional observations from a re-analysis of the deposited data

Results flagged for a closer look

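In *Atx2* RNAi, 2 genes of the serotonin pathway lists differed from wild type by a different amount at ZT0 than at ZT12, by the edgeR test of the interaction of genotype and time. For *Ddc* the log2 fold change against wild type at ZT0 minus that at ZT12 was −2.74 (SE 0.47, adjusted p = 0.0297), with lower levels in the mutant at ZT0. The call was lost in 6 of 8 fits that left out a library. For *Pkc53E* it was 2.29 (SE 0.34, adjusted p = 0.0164), with higher levels in the mutant at ZT0, and the call was lost in 3 of 8 such fits.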

How the results depend on the processing

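Groups of 2 libraries, wild-type groups that mix times, and 11 to 42 counts of *5-HT7* in *Atx2* RNAi limit these results. The cause of the changes below was not tested. Of the 3 receptor calls, each held under DESeq2, the size factors of DESeq2, library size only, no filter, at least 10 counts in every library, the length offset, only the libraries compared and the replicate block. The exceptions were fits without 1 library and, for *5-HT7* in *Atx2* RNAi at ZT12, the wild-type library of the own time (−1.93, adjusted p = 0.0563). Scaling by library size alone moved the median log2 fold change of all genes in *tyf* at ZT16 from −0.03 to −0.42, and the split from 279 higher and 312 lower to 129 and 860. In the other comparisons, the share of called genes that were higher went from 55.01% to 40.68% in *tyf* at ZT4, from 57.29% to 42.77% in wild type by day, from 59.89% to 45.21% between the *Atx2* RNAi times from 73.4% to 85.45% between the *tyf* times, and from 42.19% to 30.43% and from 60% to 85.71% in the *Atx2* and *tyf* interactions. Counts of called genes changed by over 1.5 times as follows. DESeq2 called 895 genes in *Atx2* RNAi at ZT12, 784 in *tyf* at ZT4, 1027 at ZT16, 327 in wild type, 545 between the *Atx2* RNAi times, 242 between the *tyf* times, and 239 and 55 for the *Atx2* and *tyf* interactions. With library size only the counts were 416 and 321 in *Atx2* RNAi at ZT0 and ZT12, 989 in *tyf* at ZT16, and 23 and 14 for the interactions. Without a filter they were 1126, 1142, 816 and 1006 for the 4 genotype comparisons, 721 and 349 between the times of *Atx2* RNAi and *tyf*, and 397 and 152 for the interactions. With only the libraries compared they were 222 in *tyf* at ZT4, 946 at ZT16, 115 in wild type, 748 between the *Atx2* RNAi times and 61 between the *tyf* times. With the wild-type library of the own time they were 221 in *tyf* at ZT16 and 99 and 20 for the interactions. The *tyf* interaction had 23 calls with at least 10 counts in every library, 1 with the length offset and 1 with the size factors of DESeq2. With the replicate block, 228 genes were called between the *Atx2* RNAi times and 15 for the *Atx2* interaction. Deviations of same-numbered libraries correlated with r = 0.0988 in *Atx2* RNAi and 0.0478 in *tyf* over 6725 genes. With 1 pair of deviations for each genotype, these values showed no pairing by number but cannot exclude it. The replicate block changed no receptor call. Receptors passed the threshold without a filter for *5-HT1B* in *Atx2* RNAi at ZT0 (1.14), *5-HT1A* in *Atx2* RNAi at ZT12 (1.30), in *tyf* at ZT4 (1.05), between the *tyf* times (−1.04), in wild type (−1.62) and in the *tyf* interaction (1.49), and *5-HT2B* in *tyf* at ZT16 (−1.11). They also passed with at least 10 counts for *5-HT1A* in *tyf* at ZT4 (1.09) and in wild type (−1.59), with DESeq2 for *5-HT1A* in *tyf* at ZT4 (1.06) and between the *tyf* times (−1.02), with library size only for *5-HT2B* in *tyf* at ZT16 (−1.51), with only the libraries compared for *5-HT1B* between the *Atx2* RNAi times (1.03) and with the own-time control for *5-HT1A* in *Atx2* RNAi at ZT12 (2.17). The sign turned for *5-HT2A* in *Atx2* RNAi at ZT0 with library size only (0.085) and the own-time control (1.50), and for *5-HT1A* between the *Atx2* RNAi times with library size only (−0.11) and at least 10 counts (−0.0049). With the own-time control it turned for *5-HT7* in *tyf* at ZT16 (0.22), *5-HT1A* in the *Atx2* interaction (−0.39), and *5-HT2B* (−0.27) and *5-HT7* (−0.64) in the *tyf* interaction. In wild type only, *5-HT1B* ranked 4 and *5-HT2A* 3 by level. Leaving out 1 library gave 178 to 796 and 132 to 914 calls in *Atx2* RNAi at ZT0 and ZT12, 139 to 442 and 184 to 862 in *tyf* at ZT4 and ZT16, 103 to 227 in wild type, 80 to 488 and 21 to 198 between the times of *Atx2* RNAi and *tyf*, and 9 to 190 and 1 to 102 for the interactions. It gave 1.78 to 3.50 for *5-HT1A* and −0.78 to 1.50 for *5-HT2A* in *Atx2* RNAi at ZT0, −2.31 to −1.93 for *5-HT7* at ZT12, −1.01 to 0.28 for *5-HT2B* and −0.99 to 0.48 for *5-HT7* in *tyf* at ZT4, −1.07 to 0.27 for *5-HT7* at ZT16, and −2.15 to −1.17 for *5-HT1A* and −0.34 to 0.12 for *5-HT7* in wild type. Between the *Atx2* RNAi times it gave −0.25 to 0.41 for *5-HT1A* and −2.42 to −1.84 for *5-HT2B*. Between the *tyf* times it gave −0.27 to 1.09 for *5-HT1B*, −0.25 to 1.18 for *5-HT2A*, −0.23 to 0.68 for *5-HT2B* and −0.84 to 0.90 for *5-HT7*, and in the *tyf* interaction −1.28 to 0.15 for *5-HT2A* and −0.75 to 0.99 for *5-HT7*. Where a group was left with 1 library, it was assumed to vary like the others.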

Other observations

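For each receptor, the 3 genes with the most similar profile were found by Pearson's r of log2 CPM over the 14 libraries, among 6724 genes with at least 10 counts in every library. For *5-HT1A* they were *CG17202* (r = 0.907), *mRpL44* (0.901) and *Pgant9* (0.883). *5-HT1B* was most like *krz* (0.822), a fly beta-arrestin, *CG42404* (0.801) and *nSMase* (0.784). *5-HT2A* was most like *Naus* (0.816), *Pcif1* (0.816) and *trbd* (0.777). For *5-HT2B* they were *CG7272* (0.869), *CG17593* (0.838) and *cno* (0.833), and for *5-HT7* *CG31751* (0.877), *CG7582* (0.863) and *Gasz* (0.862). Over the 6 wild-type libraries alone, r was 0.948 for *5-HT1B* and *krz* but 0.420 for *5-HT7* and *CG31751*. These are the highest of many values over libraries that share genotype and time, and they are given as a description with no test.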
